A study of Homo sapiens with 2 samples.

Results

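Receptors of the EGFR family, the related receptor MET, EGF-like ligands and the feedback inhibitor ERRFI1 were read out in A549, a long-established line of human lung adenocarcinoma cells. The genes were chosen by name (EGFR, ERBB2, ERBB3, MET, AREG, EREG, HBEGF, TGFA and ERRFI1) and taken from the rows whose gene symbol was exactly that name. All 9 were found, each on 1 row, among 12936 named genes, and 0 were absent. The wild type group and the MYOCD knockdown group each hold 1 RNA-seq library. MYOCD encodes myocardin, a coactivator of serum response factor that drives muscle genes. Both samples carry a label for doxycycline treatment lasting 72 h, whereas the series text describes the wild type cells as untreated, so treatment and knockdown cannot be told apart. The genotype label reads MYOCD Knockdown, but the title of that sample is MYOCD-/-, a form that commonly stands for a knockout. The sources used here do not settle this, nor how the change was made or whether it is 1 clone. The group is called knockdown below, after its genotype label.

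The values are RPKM, reads scaled by the length of the transcript and the size of the library, so levels of different genes can be set side by side. A difference is the log2 of knockdown RPKM + 1 over wild type RPKM + 1, a scale that makes changes of low genes look smaller. Since each group is 1 library, there is no replicate spread to set a difference against, and no test was made. The files used here hold no read counts, so the depth behind a value is unknown. Each pair of values below has the wild type library first.

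MYOCD itself was listed at 0.881 and 0.400 RPKM, under the mean of 1 RPKM asked of a gene here. With 1 library a group and no read counts, values this low do not establish the knockdown. Of the epithelial markers, 10 of 10 reached a mean of 1 RPKM, and KRT8 was listed at 1545 and 1521 RPKM. EPCAM was low, at 2.24 and 2.15 RPKM. Of these markers 8 were lower and 2 higher, none past 1.5-fold. The lowest log2 differences were those of the junction proteins JUP (78.6 and 53.9 RPKM, -0.54) and CLDN7 (2.34 and 1.33 RPKM, -0.52), and the highest those of KRT7 (0.062) and CLDN4 (0.058). Of 8 lung epithelial markers only NAPSA reached a mean of 1 RPKM, at 1.27 and 0.771 RPKM. Markers of other cell types that had a row of their own were near the floor of the table. Of 8 fibroblast markers 2 had such a row, with a summed RPKM of 4.33 and 3.91. Of 6 leukocyte markers 2 had such a row, with a sum of 3.71 and 4.10, and none of 5 endothelial markers had a row. The markers above that mean were COL1A1 (2.76 and 2.41 RPKM), THY1 (log2 difference -0.03) and CD14 (3.13 and 3.30 RPKM). COL1A2, PDGFRA and PTPRC, which define fibroblasts and leukocytes, had no row either, and CD68 was only on a row shared with another gene.

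EGFR, ERBB2 and ERBB3 are receptor tyrosine kinases that pair with each other when a ligand binds. ERBB2 has no known ligand of its own and serves as a partner, and ERBB3 has a weak kinase and signals through partners. EGF-like ligands are made as membrane-bound precursors and released by ADAM proteases. EREG and HBEGF bind EGFR and the family member ERBB4, AREG and TGFA bind EGFR, and MET is the receptor of hepatocyte growth factor. ERRFI1, also called MIG6, is induced by growth factors, glucocorticoids and stress, binds the kinase domain of the active receptors and shuts them off.

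Among these genes ERRFI1 was the one that differed most, being lower in the knockdown library. MET had the largest positive difference, EGFR and EREG were slightly higher, ERBB2 was nearly equal, and ERBB3, already low, was lower still. At 1.5-fold, 1 of the 9 was lower and 0 were higher. The background was 12158 named genes whose mean reached 1 RPKM. Of these, 3.2% were at least 1.5-fold lower and 1.65% at least 1.5-fold higher. At 2-fold, 0 of the 9 passed in either direction, beside 0.65% of all genes higher and 0.724% lower. The median log2 difference of the 9 was 0.16 and that of all genes was 0.01. Of the 9, 5 were above and 4 below 0, beside 52.1% and 47.9% of all genes. Summed over named genes the RPKM was 589490 and 592270, and over all rows, named or not, it was 1.02e+06 and 1.17e+06. The libraries thus differed in sum almost only through rows with no gene name. With the libraries scaled to equal summed RPKM over all rows, the median log2 difference of all genes was -0.17. On that scale EGFR (0.033), EREG (0.049), AREG (0.023) and TGFA (0.023) were close to 0, and MET was at 0.22. ERBB2 was at -0.23, HBEGF at -0.28, ERBB3 at -0.56 and ERRFI1 at -1.06. All 9 genes are protein-coding. Among 11024 protein-coding genes with a row of their own, 0.962% were at least 1.5-fold higher and 2.79% lower, and 0.154% were at least 2-fold higher and 0.381% lower.

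**Figure D1:**
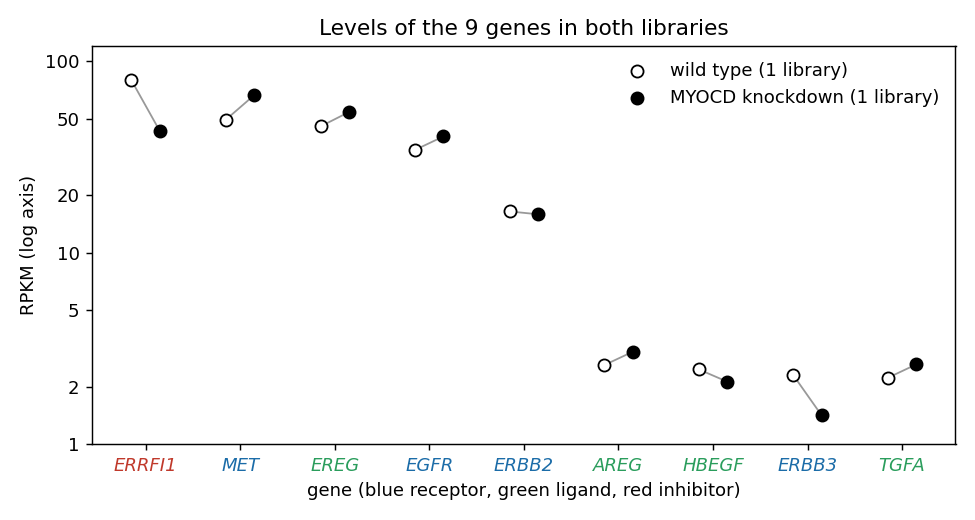
RPKM on a log axis (vertical) of the 9 genes (horizontal), with open circles for the wild type library and filled circles for the knockdown library, joined by lines with no error bars since each group has 1 library. ERRFI1 drops from 79.4 to 43.2 RPKM, from the highest of the 9 in the wild type library to the third in the knockdown library, and AREG, HBEGF, ERBB3 and TGFA lie under 5 RPKM in both.

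ERRFI1 was listed at 79.4 and 43.2 RPKM, so the knockdown value was 54.3% of the wild type value. The log2 difference was -0.87. It was the highest of the 9 genes in wild type cells, and in knockdown cells it lay below MET and EREG. In bulk RNA, less message per cell and fewer cells with the message cannot be told apart. Only 131 of the 12158 genes (1.08%) had a lower log2 difference. Of 2281 genes whose mean RPKM was within 2-fold of that of ERRFI1, 47 (2.06%) differed at least as much in either direction. In RPKM, the ERRFI1 message stood at 2.31 times that of EGFR in wild type cells and at 1.07 times in knockdown cells. Against MET the ratio passed from 1.60 to 0.649. These are ratios of RNA, not of protein. Its gene spans 8004404 to 8026308 of chromosome 1, minus strand (GRCh38, GENCODE release 29), where an antisense gene overlaps it. No source used here says whether reads were counted by strand, so reads of both strands may be mixed.

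**Figure D2:**
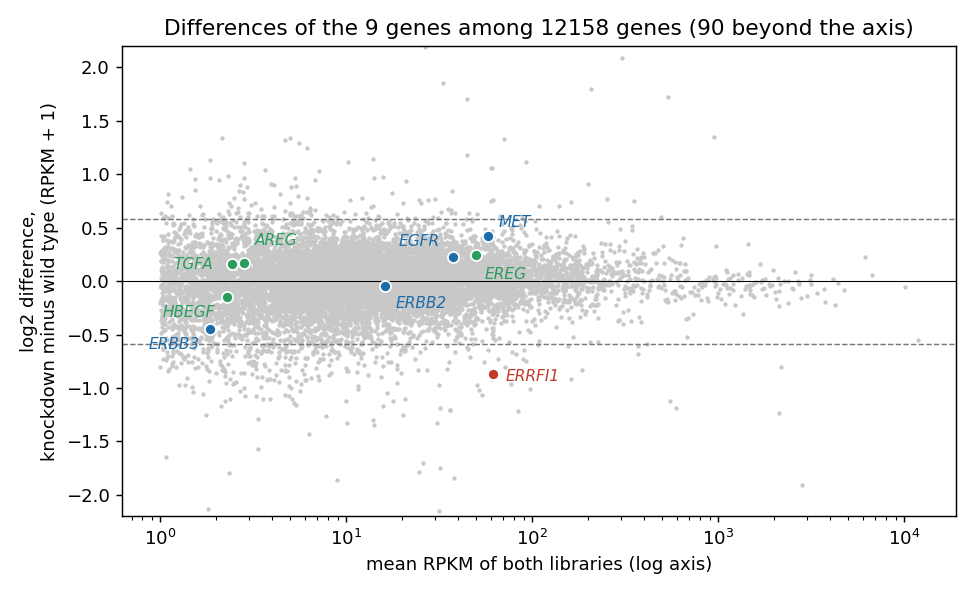
Log2 difference of knockdown minus wild type on log2(RPKM + 1) (vertical) against the mean RPKM of both libraries on a log axis (horizontal), for the 12158 named genes that reached a mean of 1 RPKM in grey and the 9 genes in colour (blue receptors, green ligands, red inhibitor), with dashed lines at 1.5-fold and 90 genes beyond the vertical axis. ERRFI1 is the one coloured point below the lower dashed line, and MET is the highest coloured point.

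The upstream sequence of ERRFI1 is shown because this gene differed most and because myocardin acts through serum response factor, whose site is the CArG box. The sequence comes from RefSeq (GRCh38.p14), chr1:8026312-8026461 on the minus strand, and runs from 152 to 3 bases before the start. Capitals mark a GC box.

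ERRFI1: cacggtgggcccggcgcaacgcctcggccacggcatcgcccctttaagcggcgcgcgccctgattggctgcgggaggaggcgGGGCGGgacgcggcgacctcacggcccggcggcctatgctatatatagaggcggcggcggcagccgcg

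The 250 bases before each start were searched on both strands for the CArG box, for TGACGTCA (the cyclic AMP response element), TGACTCA (an AP-1 site), TATAAA (the TATA box) and GGGCGG (the GC box). No pair of these motifs overlapped in the stretches printed. RefSeq windows were found for 8 of the 9 genes, 10 windows in all, and ERBB3 had none. The CArG box was in 0 of the 10 windows and in 1.16% of 35116 windows of all genes outside chromosome 8. Windows on chromosome 8 were left out, and shares of all windows refer to this set. Of the motifs searched, ERRFI1 held only the GC box, which 42.6% of all windows hold. The stretch printed for ERRFI1 also holds the A/T run tatatata toward its end, which none of these motifs matches. Looser forms of these motifs and sites of other factors were not searched. These are matches of letters within 250 bases.

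Of the receptors, MET had the highest level in both libraries, at 49.5 and 66.5 RPKM. The knockdown value was 1.34 times the wild type value, a log2 difference of 0.42. In the knockdown library MET was the highest of all 9 genes. Of the 12158 genes, 4.26% had a higher log2 difference, and of 2403 genes of like level 6.91% differed at least as much. Its gene spans 116672390 to 116798386 of chromosome 7, plus strand.

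EGFR was listed at 34.4 and 40.4 RPKM, 1.18 times higher in the knockdown library, with a log2 difference of 0.23. Of 3375 genes of like level, 27.4% differed at least as much, so a difference of this size was common in these libraries. ERBB2 was listed at 16.4 and 15.9 RPKM (log2 difference -0.05), and 83.1% of the 4968 genes of like level differed at least as much. EGFR spans 55019021 to 55211628 of chromosome 7, plus strand, with EGFR-AS1 on the opposite strand. ERBB2 spans 39687914 to 39730426 of chromosome 17, plus strand, overlaps PGAP3 and MIEN1 on the opposite strand and holds the microRNA gene MIR4728 on its own strand.

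ERBB3 was the lowest receptor, at 2.29 and 1.41 RPKM. The knockdown value was 61.6% of the wild type value, a log2 difference of -0.45, and 17.2% of 2149 genes of like level differed at least as much. At a pseudocount of 0.1 in place of 1 the log2 difference was -0.66, past 1.5-fold, so whether ERBB3 counts as lower depends on how low values are treated. The gene spans 56076799 to 56103505 of chromosome 12, plus strand, and another annotated protein-coding gene overlaps it on the same strand.

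Summed over EGFR, ERBB2 and ERBB3, the RPKM was 53.1 and 57.7. EGFR made up 64.8% and 70.1% of this sum, ERBB2 30.9% and 27.5%, and ERBB3 4.32% and 2.45%. EGFR was thus the main message of this family in both libraries. ERBB4, the other receptor of neuregulins, had no row, and every row had at least 0.652 RPKM in 1 of the libraries. MST1R, the receptor closest to MET, was listed at 4.13 and 3.64 RPKM.

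Of these 4 ligands, EREG (epiregulin) was by far the highest, at 45.6 and 54.2 RPKM. The knockdown value was 1.19 times the wild type value (log2 difference 0.24), and 23.9% of 2733 genes of like level differed at least as much. EREG made up 86.3% and 87.5% of the summed RPKM of EREG, AREG, HBEGF and TGFA. The sum was 52.9 and 61.9 RPKM, and the level of AREG in it is uncertain, for the reason given next.

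AREG (amphiregulin) was listed at 2.59 and 3.04 RPKM (log2 difference 0.17). Older human gene sets list a near-identical copy, AREGB, which can take part of its reads. No row was named AREGB, and the level of AREG is uncertain for that reason. TGFA was listed at 2.22 and 2.61 RPKM (log2 difference 0.16) and HBEGF at 2.46 and 2.12 RPKM (log2 difference -0.15). Between 54.6% and 61.3% of genes of like level differed at least as much as these ligands, so the differences were of ordinary size. TGFA spans 70447280 to 70554193 of chromosome 2, minus strand, and holds TGFA-IT1 on its own strand. HBEGF spans 140332843 to 140346631 of chromosome 5, minus strand.

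EREG (74365143 to 74388751) and AREG (74445134 to 74455009) are neighbours on chromosome 4, plus strand, with 56.4 kb between them. As listed, EREG stood at 17.6 times the level of AREG in wild type cells and at 17.8 times in knockdown cells. Since the level of AREG is uncertain, so are these ratios. Their upstream sequences are shown since the genes lie side by side and differ in listed level. Both run from 152 to 3 bases before the start on the plus strand (RefSeq, GRCh38.p14), at chr4:74364993-74365142 for EREG and chr4:74444984-74445133 for AREG. Capitals mark TATAAA in both, and in AREG also TGACGTCA and the GC box read on the opposite strand.

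EREG: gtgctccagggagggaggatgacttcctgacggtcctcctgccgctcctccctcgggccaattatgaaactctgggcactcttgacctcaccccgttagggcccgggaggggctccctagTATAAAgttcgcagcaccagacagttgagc

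AREG: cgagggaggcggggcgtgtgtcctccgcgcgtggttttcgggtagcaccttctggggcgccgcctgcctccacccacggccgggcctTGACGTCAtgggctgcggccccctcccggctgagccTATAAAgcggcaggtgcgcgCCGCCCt

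TATAAA begins 32 bases before the start in EREG and 29 bases before it in AREG, and 10.7% of all windows hold it. TGACGTCA begins 65 bases before the start of AREG, in 1.65% of all windows and in no other window of these genes. An AP-1 match occurred in 1 of the 2 EGFR windows, the one at an internal start, and in 4.20% of all windows.

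Other ligands of the family were read from a list. NRG1, a neuregulin that binds ERBB3 and ERBB4, was listed at 49.4 and 61.9 RPKM (log2 difference 0.32), above EREG in both libraries. NRG4, a neuregulin that binds ERBB4, was listed at 9.75 and 15.7 RPKM (log2 difference 0.64), past 1.5-fold, and NRG2 at 1.85 and 2.07 RPKM. Thus 3 of the 9 other ligands listed reached a mean of 1 RPKM. All 3 were higher, beside 52.1% of all genes, and 1 of them passed 1.5-fold, beside 1.65% of all genes. BTC (betacellulin) was listed at 0.0658 and 0.683 RPKM and MST1, the ligand of MST1R, at 1.02 and 0.709 RPKM, both under that mean. EGF, EPGN, NRG3 and HGF, the ligand of MET, had no row and were not analysed here. NRG1 stood at 21.5 times the level of ERBB3 in wild type cells and at 43.8 times in knockdown cells. These ratios have no pseudocount and rest on the low values of ERBB3, 2.29 and 1.41 RPKM, so their change is uncertain.

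Genes that release these ligands differed little at the median, though ADAM10 was lower in the knockdown library. Of 12 shedding genes, 8 were higher and 4 lower, beside 52.1% and 47.9% of all genes. None passed 1.5-fold, beside 1.65% of all genes higher and 3.2% lower. The median log2 difference was 0.06, or -0.13 with the libraries scaled to equal sums. ADAM10, a sheddase of the family, was lowest at 71.3 and 50.4 RPKM (log2 difference -0.49), followed by FRMD8, which binds the iRhom proteins, at 11.9 and 10.3 RPKM. ADAM17, the main sheddase of AREG, EREG, HBEGF and TGFA, was listed at 36.0 and 37.9 RPKM. RHBDF2, an iRhom that carries ADAM17 to the cell surface, was highest at 24.3 and 30.1 RPKM, followed by ADAM12 at 1.88 and 2.48 RPKM.

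Of 10 genes that activate or assist MET, 5 reached a mean of 1 RPKM. Of these, 3 were higher and 2 lower, beside 52.1% and 47.9% of all genes, with a median of 0.11, or -0.089 at equal sums. CD44, a co-receptor, was listed at 96.4 and 120 RPKM, and the proteoglycan SDC1 at 96.5 and 110.1 RPKM. PLXNB1, a plexin that pairs with MET, and its ligand SEMA4D were the lowest, with log2 differences of -0.10 and -0.07. SPINT2, an inhibitor of the proteases that activate hepatocyte growth factor, was listed at 338 and 365 RPKM.

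**Figure D3:**
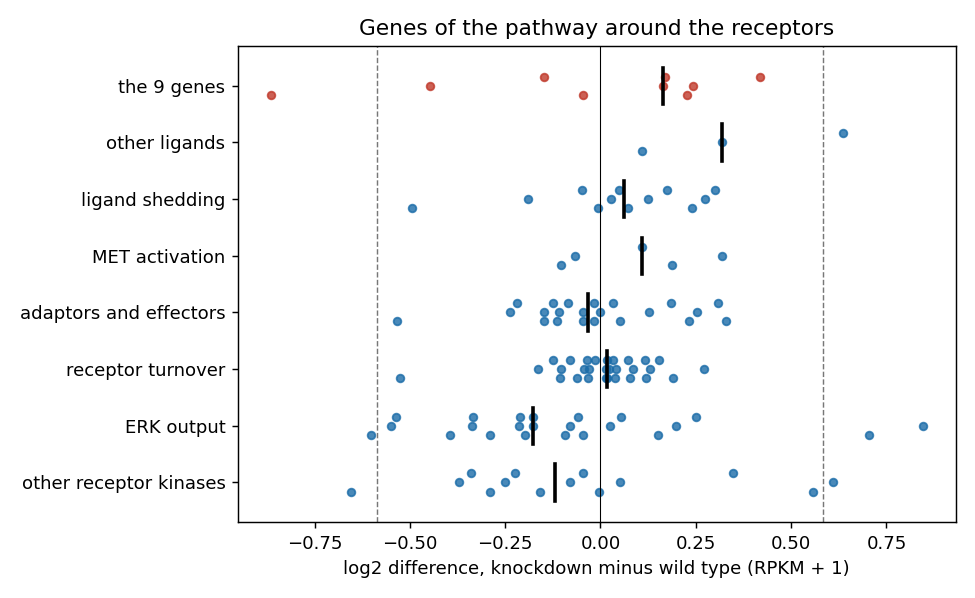
Log2 difference of knockdown minus wild type on log2(RPKM + 1) (horizontal) for the 9 genes (red) and 7 lists of pathway genes (blue), 1 point per gene that reached a mean of 1 RPKM, black bars at the medians and dashed lines at 1.5-fold. ERRFI1 is the leftmost point of all, and FOSL1, in the ERK output list, the rightmost, at 0.85. The vertical spread of points within a row carries no value.

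Adaptors and effectors of the receptors had a median of -0.03, or -0.22 at equal sums. Of these, 22 of 22 were measured, 8 higher and 14 lower, beside 52.1% and 47.9% of all genes. None passed 1.5-fold, beside 1.65% of all genes higher and 3.2% lower. STAT3, a transcription factor, was highest at 43.3 and 54.7 RPKM, followed by the PI3-kinase subunit PIK3R1 at 2.76 and 3.66 RPKM. The docking protein IRS2 was lowest at 16.3 and 11.0 RPKM (log2 difference -0.53), followed by the phospholipase PLCG1 at 15.1 and 12.7 RPKM.

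Other genes that act on the receptors after activation differed less than ERRFI1. Of 30 genes for receptor turnover, folding and dephosphorylation, 29 were measured, 17 higher and 12 lower, beside 52.1% and 47.9% of all genes. None passed 1.5-fold, beside 1.65% of all genes higher and 3.2% lower. The median was 0.02, or -0.16 at equal sums. LRIG1, another inhibitor of the family, was listed at 2.35 and 2.51 RPKM, and the ubiquitin ligase CBL, which sends EGFR to the lysosome, at 8.78 and 9.05 RPKM. The phosphatase PTPN1 was highest at 18.7 and 22.7 RPKM, followed by LRIG3, a relative of LRIG1, at 3.66 and 4.31 RPKM. The chaperone HSP90AB1 was lowest, with a log2 difference of -0.53, followed by the CBL-binding adaptor SH3KBP1 at 24.4 and 21.6 RPKM. LRIG1 and CBL were chosen for mention after their values were seen.

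Genes known to respond to ERK, the kinase below EGFR and MET, differed in both directions. Of 24 listed, 23 were measured, of which 7 were higher and 16 lower, beside 52.1% and 47.9% of all genes, with a median of -0.18, or -0.32 at equal sums. FOSL1, an AP-1 subunit, was listed at 26.2 and 47.9 RPKM (log2 difference 0.85), and CCND1, cyclin D1, at 106 and 173 RPKM (log2 difference 0.70). IER3, an early stress gene, was lowest at 129 and 84.9 RPKM (log2 difference -0.60), and the early gene EGR1 had a log2 difference of -0.55. These were the 2 highest and 2 lowest of the list, and at 1.5-fold it held 2 higher genes and 1 lower gene, beside 1.65% and 3.2% of all genes. DUSP6, an ERK phosphatase chosen for mention after its value was seen, was listed at 6.86 and 5.79 RPKM.

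Other receptor tyrosine kinases give the spread of the class. Of 24 listed, 14 reached a mean of 1 RPKM, with 4 higher, 10 lower (47.9% of all genes were lower) and a median of -0.12, or -0.31 at equal sums. At 1.5-fold, 1 was higher and 1 lower, beside 1.65% and 3.2% of all genes. ROR1 was highest, at 3.02 and 5.12 RPKM (log2 difference 0.61), followed by AXL at 73.5 and 109 RPKM (log2 difference 0.56). FGFR3 was lowest at 6.19 and 3.57 RPKM (log2 difference -0.65), followed by IGF1R at 33.9 and 26.0 RPKM. AXL was the one listed receptor kinase with a level above that of MET in both libraries.

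The bases AATATGC, which an earlier look at these same data found often in the 3′ UTRs of lower messages, were searched in the longest annotated 3′ UTR of each gene. They occurred in 0 of the 9 genes, ERRFI1 included, and in 11.5% of 11007 protein-coding genes with a row of their own that reached a mean of 1 RPKM. Of the 303 such genes at least 1.5-fold lower, 18.8% held them, but the word was picked on these genes and their share is a description.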

How the data were processed

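RNA-seq of 2 A549 samples was used, 1 library a group, grouped by the genotype label. The authors deposited RPKM, 1 column a library. Per the submitters' processing notes, the tools were Cufflinks 2.2.1 and TopHat2 2.0.10 and the genome builds BDGP5, of the fruit fly, and GRCh38.p12, with no role stated. The sources used here give no annotation, read filter or use of strand. Of 14952 rows, 1909 (12.8%) had no gene name and were left out. Rows of 1 symbol were summed (102 symbols), a pseudocount of 1 was added, and genes were kept where the mean reached 1 RPKM. Counts use size rules of 1.5-fold and 2-fold, with no test. Genes of like level have a mean RPKM within 2-fold.

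The 9 genes, the lists and the rules were chosen with earlier results of these data known. In each list the 2 highest and 2 lowest kept genes are named, with ERBB4, EGF, BTC, EPGN, NRG1 and HGF. Among listed genes with a row of their own, KRT8, EPCAM, MST1, ADAM17, SPINT2, LRIG1, CBL and DUSP6 are named outside this rule. Coordinates, overlaps and UTRs come from GENCODE release 29 (GRCh38), whose gene bounds may differ from those the authors used. Alternatives were pseudocounts of 0.1 and 5, other scalings, 1 row a symbol, no filter and a mean of at least 5 RPKM. The steps used Python 3.11.15, numpy 2.4.6 and pandas 2.3.3. Only the log2 difference and the 1.5-fold rule were run on simulated data with known changes, as a check of the code.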

Additional observations from a re-analysis of the deposited data

How the results depend on the processing

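All 9 genes kept the sign of their log2 difference under each alternative that kept them, and 4 of them (AREG, HBEGF, TGFA and ERBB3) were not kept at a mean of at least 5 RPKM. ERRFI1 ranged from -1.06 with equal summed RPKM to -0.81 with a pseudocount of 5, and MET from 0.22 to 0.43. At a pseudocount of 0.1 ERBB3 was at -0.66 and 2 genes were at least 1.5-fold lower. Scaling to equal sums took the sums over all rows, those with no gene name included. It lowered the log2 differences by 0.20 before the pseudocount and moved the median of all genes to -0.17. It put 1 of the 9 genes, ERRFI1, past 2-fold lower and moved their median to 0.023. List medians at equal sums were 0.12 for other ligands, -0.13 for shedding, -0.089 for MET activation, -0.16 for turnover, -0.22 for adaptors, -0.32 for ERK output and -0.31 for other receptor kinases. With sums over named genes alone, an alternative chosen after seeing the data, the shift was -0.01. Under equal sums 781 genes were at least 1.5-fold lower and 108 higher, beside 389 and 201. At a pseudocount of 0.1 these were 615 and 345, and at 5 they were 125 and 97. The 2-fold counts went from 88 lower and 79 higher to 189 and 111 at 0.1, to 140 and 68 at equal sums and to 53 and 65 at 5. No paired analysis was possible because each group has 1 library. Depth is unknown, so counting error could not be set.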
